A study of Mus musculus with 8 samples.

Results

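Claudins and other genes of epithelial and endothelial cell junctions were followed in the lungs of *Wfdc2*+/+ and *Wfdc2*GFP/GFP mice before and after birth. The set was chosen by gene symbol and held 40 of the 25965 genes of the deposited table. It was made of 25 entries whose symbol is *Cldn* and a number, and of 15 genes of other junction proteins, among them the plaque genes *Tjp1*, *Tjp3* and *Cgn*, and *Ocln*, *Marveld2*, *Marveld3*, *F11r*, *Jam2*, *Jam3*, *Cdh1*, *Ctnna1*, *Ctnnb1*, *Ctnnd1* and *Ezr*. RNA of whole lung was sequenced at the embryonic stage E18.5 and the postnatal stage P1.5, counted in days, with 2 animals for each genotype and stage and 8 libraries in all. In the *Wfdc2*GFP allele a GFP cassette replaces part of the first exon and the whole of the second exon of *Wfdc2*, which encodes a secreted WAP domain protein of epithelia. The allele was made in TT2 embryonic stem cells, passed through chimeras with ICR host embryos, and its selection cassette was removed with CAG-Cre, so GFP was made from the *Wfdc2* locus and the gene was missing in every cell from conception.

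Tight junctions close the space between neighbouring cells of a sheet. Their strands are built by claudins, membrane proteins of which some seal the gap and others form pores for ions or water, together with occludin and the related MARVEL proteins, while the ZO proteins encoded by the *Tjp* genes tie the strands to actin. Adherens junctions lie beside them and hold cells together through E-cadherin and its catenins. In the lung, claudin 18, claudin 3 and claudin 4 are the main claudins of alveolar epithelium, claudin 5 is that of vascular endothelium, and claudin 7, claudin 1, claudin 8 and claudin 10 are known from the airways.

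Library sizes ran from 19457647 to 37209333 reads, so that 3 reads, used as the limit of detection, stood for 0.0806 to 0.154 RPM. *Wfdc2* itself had 8038 to 32845 reads in the 4 *Wfdc2*+/+ libraries and 0 to 12 in the 4 *Wfdc2*GFP/GFP libraries. A pair of libraries stood apart. *Wfdc2*+/+ replicate 2 at P1.5 differed from the 4 libraries of E18.5 by a root mean square of 0.817 to 1.19 log2 units over all genes tested, less than the 1.29 between it and its own replicate. *Wfdc2*GFP/GFP replicate 1 at E18.5 lay 0.995 from its own replicate, where the E18.5 *Wfdc2*+/+ replicates lay 0.471 apart. Every replicate 1 had 4121 or more reads of *Xist*, an RNA of the inactive X chromosome of female cells, and every replicate 2 had 13 or fewer, so each group held 1 library with and 1 without *Xist*. Results that moved without 1 of the libraries that stood apart are also given without it. Epithelial markers (*Epcam*, *Krt8*, *Krt18*, *Krt19*, *Nkx2-1*, *Elf3*) had at least 10 reads in every library for 6 of 6 genes, as had the alveolar type I, alveolar type II, club cell and endothelial lists, with 6 of 6, 6 of 6, 4 of 4 and 6 of 6.

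Of the 40 genes, 28 had at least 10 reads in every library. *Cldn14*, *Cldn16*, *Cldn17*, *Cldn20* and *Cldn24* had 3 reads or fewer in every library and were not detected at this depth, and of these *Cldn16* and *Cldn24* had no reads in any library. A filter of 0.05 RPKM, the mean over the 8 libraries of reads per kilobase scaled to library size, passed 35 of the 40 and 20 of the 25 claudins, among 15627 genes in all. *Cldn14*, *Cldn16*, *Cldn17*, *Cldn19* and *Cldn26* did not pass. *Cldn24* passed although it had no reads, because the table enters 0.9 read where there is none and the gene is short, and no fold change is given for it. The entry named *Cldn25*, at chr16:58727910-58734251 on the plus strand of mm10, lies where GENCODE and RefSeq place *Cldnd1*, a claudin domain gene outside the numbered family. The entry named *Cldn26*, at chr16:8409276-8425136 on the minus strand, lies where they place *Tmem114*.

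By the mean over the 8 libraries, the most abundant junction genes were claudins of endothelium and alveolar epithelium. Levels between genes were compared per kilobase of exon. *Cldn5* stood first with a mean over the 8 libraries of 338 RPKM of exon and a range of 46.4 to 789. *Cldn18* followed with 163 (104 to 208) and *Cldn3* with 158 (48.6 to 375). *Ctnnb1*, encoding beta-catenin, stood at 144, and *F11r*, encoding the junctional adhesion molecule JAM-A, at 86.2. *Ezr*, encoding ezrin, which links membrane proteins to cortical actin, stood at 82.4, *Ctnna1* (alpha-catenin) at 68.4 and *Cdh1* (E-cadherin) at 59.4. *Cldn7* with 44.3 and *Cldn4* with 42.1 closed the 10 highest. In the E18.5 libraries alone *Ctnnb1* had 148 to 203, *Cldn5* 46.4 to 208, *Cldn18* 127 to 164 and *Cldn3* 48.6 to 129. The place of these claudins above *Ctnnb1* is therefore given only for the mean over both stages. Every gene overlapped its neighbour in this order in its range over the 8 libraries, so that no 2 neighbours were separated. The deposited values are per kilobase of the whole gene span, introns included, and by span 8 of the same 10 genes were the highest.

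**Figure D1:**
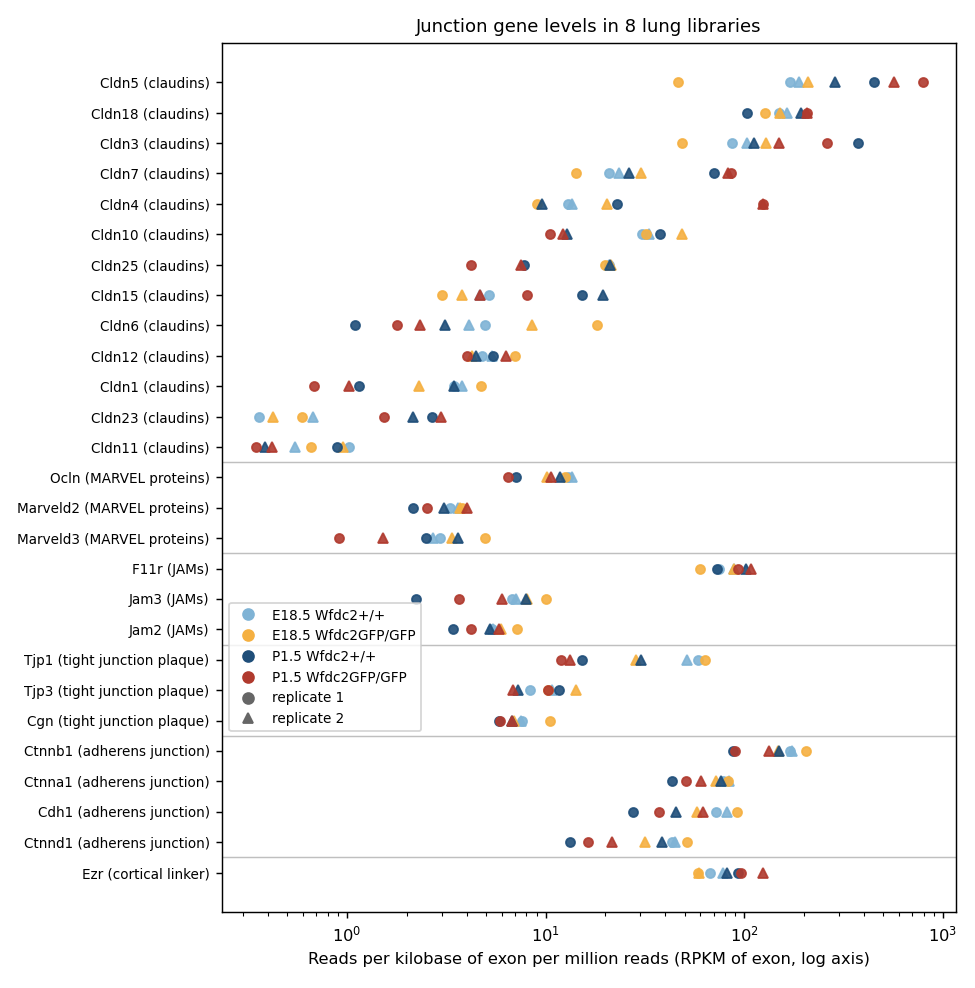
Level of 27 junction genes with at least 10 reads in every library, in RPKM of exon on a log axis, with 1 point per library coloured by group and shaped by replicate number. Genes are ordered by role and mean level. *Cldn5* spans 46.4 to 789, and both P1.5 *Wfdc2*GFP/GFP points of *Cldn4* lie to the right of its other 6.

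At P1.5 the genotypes differed most in *Cldn4*, which encodes a sealing claudin of alveolar and other epithelia. Its log2 RPKM was 4.53 and 3.27 in *Wfdc2*+/+, against 6.97 and 6.96 in *Wfdc2*GFP/GFP. Both mutant libraries stood above both controls, and above all 4 libraries of E18.5. The *Wfdc2*GFP/GFP mean exceeded that of *Wfdc2*+/+ 8.36-fold (log2 difference 3.06 ± 0.51 SE, n = 2 per group, 95% interval 1.89 to 4.23). The unadjusted p was 0.000331 and the limma Benjamini-Hochberg adjusted p over 15627 genes was 0.152, so *Cldn4* did not pass the threshold of 0.05. Over 19 alternatives the log2 difference stayed between 2.44 and 3.69 and the adjusted p between 0.0659 and 0.463. Without *Wfdc2*+/+ replicate 2 it was 2.44 (adjusted p = 0.0958). Epithelial marker RNA summed to 164 to 447 RPKM in *Wfdc2*+/+ and 361 to 362 in *Wfdc2*GFP/GFP at P1.5, and alveolar type II markers to 8109.6 to 17320 and 14486 to 20288, and their part in the *Cldn4* difference was not tested. In whole lung, more cells of a type and more RNA per cell cannot be told apart.

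*Cldn4* lies at chr5:134945126-134946934 on the minus strand (mm10), and its neighbour *Cldn3*, another claudin of alveolar epithelium, starts 39279 bases away at chr5:134986214-134987476 on the plus strand. The groups overlapped for *Cldn3*. Its log2 RPKM was 8.55 and 6.80 in *Wfdc2*+/+ against 8.02 and 7.23 in *Wfdc2*GFP/GFP, with both mutant libraries between the controls. The difference was -0.05 ± 0.67 (adjusted p = 0.983), with an interval from -1.61 to 1.51 that leaves room for changes in either direction. The difference between the neighbours was not tested. Reads from *Cldn3* and *Wbscr25*, a gene on the opposite strand that overlaps it, could have been counted together, since the use of strand in counting is not given in the sources used here. The 250 bases before the start of each gene are shown for the gene with the largest P1.5 difference and its neighbour (RefSeq, GRCm38.p6, both written 5′ to 3′ along the gene). Capitals mark matches to an AP-1 motif, TGANTCA, and to a GC box, GGGCGG, which is written as its reverse complement where it lies on the other strand.
Cldn4 promoter, chr5:134946935-134947184, minus strand: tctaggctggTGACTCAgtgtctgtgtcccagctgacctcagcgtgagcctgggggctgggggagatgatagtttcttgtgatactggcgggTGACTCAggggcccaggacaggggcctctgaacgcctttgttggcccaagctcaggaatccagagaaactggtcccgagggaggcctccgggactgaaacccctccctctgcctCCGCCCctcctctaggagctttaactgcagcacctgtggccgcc
Cldn3 promoter, chr5:134985964-134986213, plus strand: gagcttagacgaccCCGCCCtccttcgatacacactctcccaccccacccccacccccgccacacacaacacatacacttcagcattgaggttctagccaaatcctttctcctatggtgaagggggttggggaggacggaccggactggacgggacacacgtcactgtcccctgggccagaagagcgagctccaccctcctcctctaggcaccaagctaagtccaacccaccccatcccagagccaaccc
The *Cldn4* window holds the AP-1 letters at 240 to 234 and at 158 to 152 bases before the start, and a GC box at 44 to 39 bases. The *Cldn3* window holds a GC box at 236 to 231 bases and no AP-1 letters. The motif letters were chosen after these sequences were seen. Searched on both strands of 32851 mouse promoter windows of 250 bases, AP-1 letters were found in 6.75% and a GC box in 32.7%. Promoter windows were matched for 30 of the 40 genes, 43 windows in all, of which 4 held AP-1 letters (*Cldn4*, *Cldn15*, *Ezr* and *F11r*) and 23 a GC box. TATA box letters, TATAAA, were in 5 of the 43 and 12.4% of all windows, and grainyhead-like letters, AACNNGTT, in 2 and 3.64%.

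No junction gene passed the adjusted threshold between genotypes at P1.5 with limma (0 of 35 tested), nor with limma voom on the reads recovered from the table (0 of 35). Over all genes, 0% passed as higher and 0.0128% as lower with limma, and the share with voom is not given here. At an unadjusted p under 0.05, 2 were higher (*Cldn4*, *Cldn2*; 3.61% of all genes tested) and 3 lower (*Cldn15*, *Marveld3* and the *Cldnd1* entry; 7.33%). The groups did not overlap for 6 genes that were higher in *Wfdc2*GFP/GFP (12.6% of all genes) and 7 that were lower (26.9%), the latter including *Cldn24*, which had no reads. The median over the 35 was -0.06, against -0.20 over all genes tested. When each library was centred on its own median these became 0.14 and 0.003, with 22 genes higher and 13 lower in place of 15 and 20. Over all genes tested, 7841 were then higher and 7786 lower in place of 6056 and 9571.

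Among the other claudins that were higher, *Cldn2* encodes a claudin that forms pores for sodium ions and water. It had 33 and 7 reads in *Wfdc2*+/+ against 59 and 177 in *Wfdc2*GFP/GFP, or log2 RPKM of -2.80 and -4.88 against -2.05 and -0.80. Both mutants lay above both controls, at low counts. The log2 difference was 2.41 ± 0.73 (adjusted p = 0.339), and it was 1.37 (adjusted p = 0.296) without *Wfdc2*+/+ replicate 2. *Cldn7* encodes a claudin of airway and alveolar epithelium. It was at 5.47 and 4.05 in *Wfdc2*+/+ against at 5.75 and 5.71 in *Wfdc2*GFP/GFP. The groups did not overlap, the controls spread far more widely than the mutants, and the difference of 0.97 ± 0.52 (adjusted p = 0.552) was 0.25 without *Wfdc2*+/+ replicate 2. *Cldn18*, which has a lung-specific isoform, stood at 4.05 and 4.94 against 5.06 and 5.05 (0.56 ± 0.35, adjusted p = 0.614). *Cldn5* of endothelium stood at 8.82 and 8.16 against 9.63 and 9.16 (0.90 ± 0.67, adjusted p = 0.677). Endothelial markers summed to 12.7 to 39.4 RPKM in *Wfdc2*+/+ and 23.6 to 29.5 in *Wfdc2*GFP/GFP, and their part in the *Cldn5* difference was not tested.

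*Cldn15*, which encodes another pore-forming claudin, had the most negative P1.5 difference among junction genes whose groups did not overlap. Its log2 RPKM was 1.81 and 2.17 in *Wfdc2*+/+ against 0.89 and 0.11 in *Wfdc2*GFP/GFP. The mutant libraries were both lower than the controls and spread more widely. The difference was -1.49 ± 0.37 (2.81-fold lower, adjusted p = 0.287), and -1.31 without *Wfdc2*+/+ replicate 2. *Marveld3*, which encodes a MARVEL protein beside occludin, was at -0.80 and -0.27 in *Wfdc2*+/+ against -2.26 and -1.52 in *Wfdc2*GFP/GFP. Again the groups did not overlap, and the difference was -1.35 ± 0.42 (2.55-fold lower, adjusted p = 0.342). *Cldn1*, a sealing claudin of squamous and airway epithelium, was at -1.45 and 0.13 against -2.21 and -1.63. Its groups lay close, with controls far apart, and the difference of -1.26 ± 0.59 (adjusted p = 0.486) became -0.47 without *Wfdc2*+/+ replicate 2. Markers of basal and squamous epithelium (*Krt5*, *Krt14*, *Krt15*, *Trp63*, *Krt4*, *Krt13*), of which 4 of 6 had at least 10 reads in every library, summed to 17.6 to 36.03 RPKM in *Wfdc2*+/+ and 4.39 to 12.2 in *Wfdc2*GFP/GFP, and their part in these differences was not tested. By gene, 4 of the 5 basal and squamous markers tested were lower in *Wfdc2*GFP/GFP and 1 was higher. The *Cldnd1* entry had 433 and 1048 reads against 249 and 565 (-1.19 ± 0.49, adjusted p = 0.442). *Cldn10*, which encodes a claudin of airway epithelium with pore-forming isoforms, stood at 0.15 and -1.41 against -1.69 and -1.46.

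None of the genes outside the claudins passed the threshold between genotypes at P1.5. *Cdh1* and *Ezr* are given in every comparison because their proteins were measured by western blot and stained in lungs of the same alleles. *Cdh1* was at 0.91 and 1.63 in *Wfdc2*+/+ against 1.35 and 2.08 in *Wfdc2*GFP/GFP. The groups overlapped, and the difference was 0.44 ± 0.41 (adjusted p = 0.746, interval -0.50 to 1.38), and 0.80 without *Wfdc2*+/+ replicate 2. *Ezr* was at 2.77 and 2.59 against 2.82 and 3.20. Here both mutants lay above both controls, and the difference was 0.33 ± 0.28 (adjusted p = 0.725). The catenin genes *Ctnna1*, *Ctnnb1* and *Ctnnd1* differed by -0.06, -0.06 and -0.27. *Ocln* (occludin) differed by -0.13 and *Marveld2* (tricellulin, at corners where 3 cells meet) by 0.31. *F11r*, *Jam2* and *Jam3*, the junctional adhesion molecules, differed by 0.22, 0.22 and 0.16, with adjusted p from 0.812 to 0.935. In the plaque, *Tjp1* (ZO-1) had a difference of -0.77 ± 0.47 (adjusted p = 0.597) with no overlap, and *Tjp3* (ZO-3) and *Cgn* (cingulin) had -0.13 and 0.01.

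**Figure D2:**
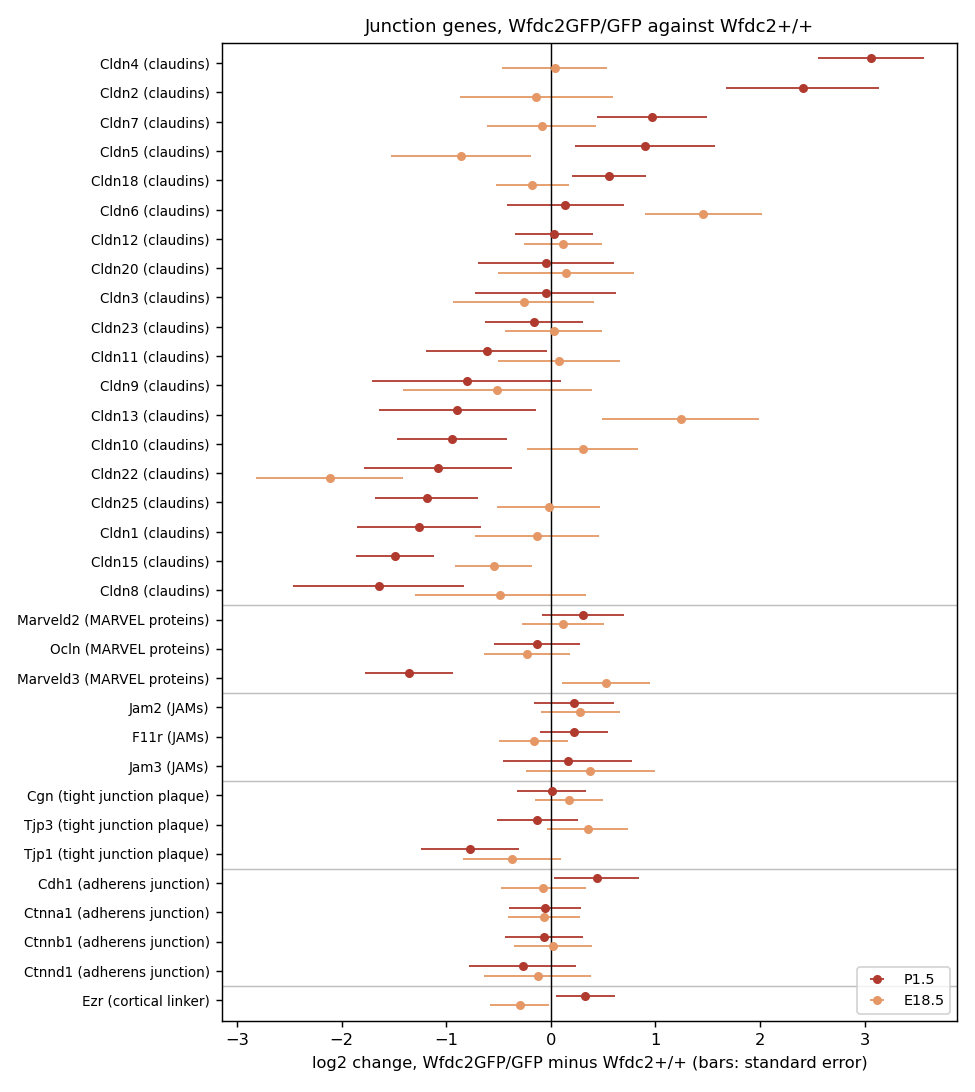
Difference between *Wfdc2*GFP/GFP and *Wfdc2*+/+ in log2 RPKM for 33 tested junction genes with reads, at P1.5 and at E18.5, with bars of 1 standard error from the limma fit and genes grouped by role. *Cldn4* lies at 3.06 at P1.5 and 0.04 at E18.5, and most genes outside the claudins lie within 1 standard error of 0 at both stages.

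**Figure D3:**
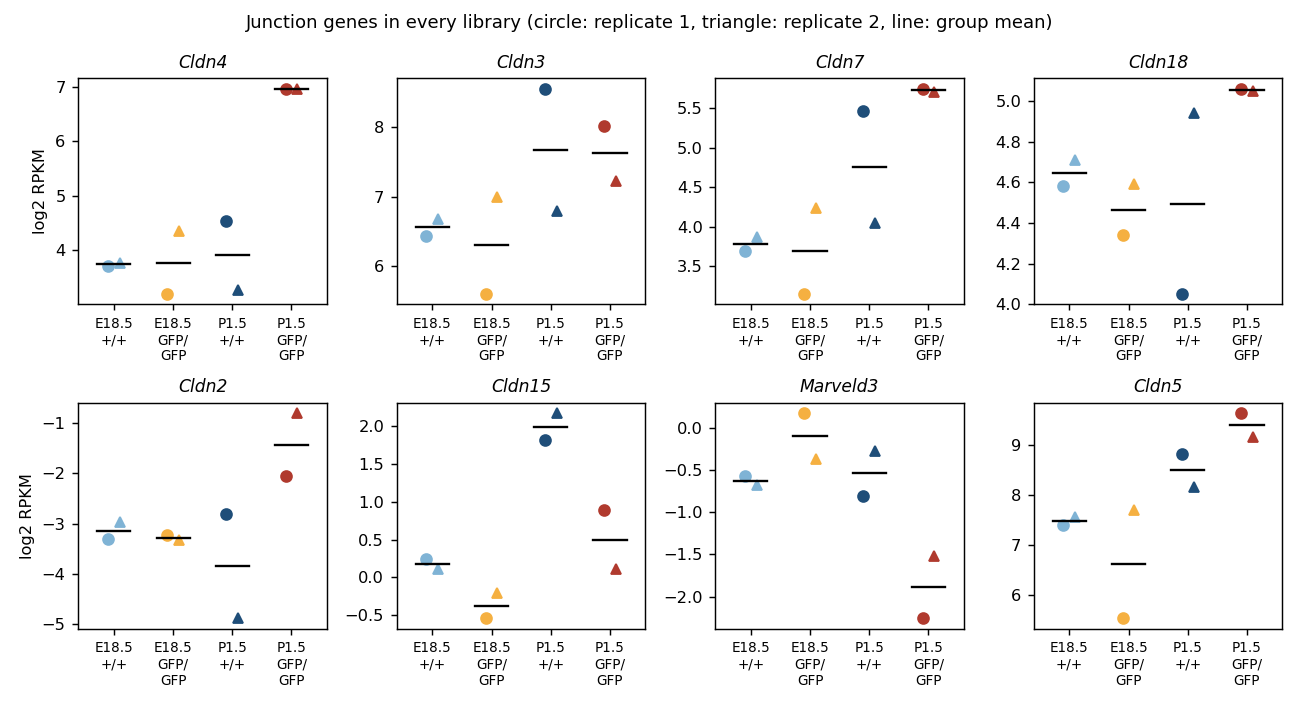
Log2 RPKM of 8 junction genes in every library, by group, with circles for replicate 1, triangles for replicate 2 and a line at the group mean. Each panel has its own axis. The P1.5 *Wfdc2*GFP/GFP points of *Cldn4* (6.97 and 6.96) lie above all others, and those of *Marveld3* (-2.26 and -1.52) below all others.

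Before birth, at E18.5, no junction gene passed between the genotypes, with limma or with voom (0 of 35 each). With limma, 0% of all genes passed as higher and 0.0192% as lower. An unadjusted p under 0.05 was reached by 1 gene that was higher (*Cldn6*; 3.78% of all genes) and 1 that was lower (*Cldn22*; 0.595%). The groups did not overlap for 5 genes that were higher (26.5%) and 6 that were lower (9.46%). *Cldn6*, a claudin of embryonic epithelia, was at 1.47 and 1.20 in *Wfdc2*+/+ against 3.34 and 2.25 in *Wfdc2*GFP/GFP. The higher mutant value came from replicate 1, the library that stood apart. The difference was 1.46 ± 0.56 (adjusted p = 0.9998), and 0.91 without that library. *Cldn22* had 5 and 3 reads in *Wfdc2*+/+ against 0 and 0 in *Wfdc2*GFP/GFP, where 0.9 read was entered for each 0. Its counts lay close to the limit of 3 reads, so its fold change cannot be bounded. The gene lies within *Wwc2* in GENCODE. *Cldn4* was at 3.71 and 3.76 against 3.19 and 4.35, a difference of 0.04 ± 0.51 with an interval from -1.13 to 1.20. *Cldn5* was at 7.40 and 7.56 against 5.54 and 7.70, so that replicate 1 alone set its mean difference of -0.86 ± 0.67. *Cldn15* stood at 0.25 and 0.11 against -0.54 and -0.20 (-0.55 ± 0.37) and *Cldn8* at -0.46 and 0.07 against -0.50 and -0.86 (-0.48 ± 0.82).

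Outside the claudins, the E18.5 differences were small. *Marveld3* stood at -0.57 and -0.68 in *Wfdc2*+/+ against 0.18 and -0.37 in *Wfdc2*GFP/GFP, both mutants higher (0.53 ± 0.42, and 0.25 without *Wfdc2*GFP/GFP replicate 1). *Jam3* stood at -1.42 and -1.36 against -0.85 and -1.17 (0.38 ± 0.62, and 0.22 without that library). *Ezr* was at 2.30 and 2.52 against 2.11 and 2.12, both mutants lower (-0.30 ± 0.28, interval -0.95 to 0.36). *Cdh1* was at 2.30 and 2.48 against 2.65 and 1.99, overlapping (-0.07 ± 0.41). It was -0.40 without *Wfdc2*GFP/GFP replicate 1, and its sign turned without *Wfdc2*GFP/GFP replicate 2 (0.26) and without *Wfdc2*+/+ replicate 2 (0.02). The adjusted p of these 4 was 0.9998. The median over the 35 genes was -0.07, against 0.09 over all genes tested, and -0.28 against -0.12 after centring each library on its median.

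The change of the genotype difference from E18.5 to P1.5 was tested as an interaction. No junction gene passed with limma or voom (0 of 35), and with limma no gene of the 15627 did (0% in each direction). At an unadjusted p under 0.05, *Cldn4* and *Cldn2* were positive (2.18% of all genes) and *Marveld3* negative (8.06%). *Cldn4* had an interaction of 3.03 ± 0.71 (adjusted p = 0.222), from a genotype difference of 3.06 at P1.5 and 0.04 at E18.5. It was 2.40 (adjusted p = 0.172) without *Wfdc2*+/+ replicate 2 of P1.5 and 2.44 (adjusted p = 0.462) without *Wfdc2*GFP/GFP replicate 1 of E18.5. *Cldn2* had 2.55 ± 1.04 (adjusted p = 0.458), and 1.51 without *Wfdc2*+/+ replicate 2 of P1.5. *Marveld3* had -1.88 ± 0.60 (adjusted p = 0.341), with every mutant library above the controls at E18.5 and below them at P1.5. *Ezr* had 0.62 ± 0.40 (adjusted p = 0.658) with the opposite pattern. *Cldn7*, *Cldn15* and *Cldn1* had 1.05 ± 0.74, -0.94 ± 0.52 and -1.13 ± 0.84, and *Cdh1* 0.51 ± 0.57, with adjusted p from 0.594 to 0.819. Without *Wfdc2*+/+ replicate 2 of P1.5, *Cldn7*, *Cldn1* and *Cdh1* had 0.34, -0.34 and 0.87, and without *Wfdc2*GFP/GFP replicate 1 of E18.5 they had 0.51, -0.62 and 0.84.

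The stages were compared within each genotype and over both. The stage comparisons of the genotypes share no libraries with each other, but share theirs with the genotype comparisons. A pair of features of the table touch every stage value. Over all genes tested the median difference between P1.5 and E18.5 was -0.15 in *Wfdc2*+/+ and -0.46 in *Wfdc2*GFP/GFP. It also varied with the length of the transcript. Averaged over genotypes, the median was 0.51 for the 2766 genes whose longest transcript was at most 1582 bases, and -0.83 for the 2766 of 4943 bases or more. Of the junction genes, 8 were in the shortest class, all of them claudins and *Cldn20*, *Cldn22* and *Cldn24* among them with few or no reads, with a median of 1.19, and *Tjp1*, *Ctnnd1* and *Cgn* in the longest, with -1.03. Some values are therefore also given after removal of the trend with transcript length and GC content, an alternative chosen after the data were seen, and the part of the trend in each result beyond that was not tested.

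In *Wfdc2*+/+ lungs, no junction gene passed between P1.5 and E18.5 (0 of 35 with limma and with voom). With limma, 0.0256% of all genes passed as higher and 0.032% as lower. At an unadjusted p under 0.05, 3 were higher (*Cldn13*, *Cldn23*, *Cldn15*; 6.9% of all genes) and 3 lower (*Tjp1*, *Cdh1*, *Cldn6*; 4.93%). *Cldn15* was at 0.25 and 0.11 at E18.5 and at 1.81 and 2.17 at P1.5. The stages did not overlap and the replicates lay close. The difference was 1.81 ± 0.37 (3.50-fold higher, adjusted p = 0.134), and 1.69 after removal of the length and GC trend. *Cldn23*, a claudin of epithelial barriers, had 23 and 39 reads at E18.5 and 108 and 77 at P1.5 (2.28 ± 0.47, adjusted p = 0.139). *Cldn13*, a claudin gene known in rodents, had 6 and 2 reads against 42 and 18 (3.66 ± 0.75, adjusted p = 0.138). *Tjp1* was at 2.60 and 2.43 against 0.67 and 1.65 (-1.36 ± 0.47), and -0.69 after removal of the trend. *Cdh1* was at 2.30 and 2.48 against 0.91 and 1.63 (-1.12 ± 0.41, adjusted p = 0.379). Without *Wfdc2*+/+ replicate 2 of P1.5, the library that lay near those of E18.5, 7 junction genes passed where 13.9% of all genes did, among them *Cldn13* (4.19), *Cldn23* (2.44), *Cldn15* (1.63), *Cldn6* (-2.04) and *Tjp1* (-1.85).

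In *Wfdc2*GFP/GFP lungs, 3 of the 35 passed: *Cldn4* and *Cldn23* rose (1.61% of all genes did) and *Cldn6* fell (2.94%). At an unadjusted p under 0.05, 7 were higher (9.61% of all genes) and 7 lower (26%), and the stages did not overlap for 13 that were higher (18.7%) and 16 that were lower (48.5%). The 13 included *Cldn20*, with 1 and 1 reads at E18.5 and 0 and 3 at P1.5. They also included *Cldn22*, with 0 and 0 reads and then 0 and 4. *Cldn4* was at 3.19 and 4.35 at E18.5 and 6.97 and 6.96 at P1.5. The stages lay far apart and the mutant replicates of P1.5 were nearly equal. The rise was 3.19 ± 0.51 (9.14-fold, adjusted p = 0.0331). In *Wfdc2*+/+ the same gene was at 3.71 and 3.76 before birth and at 4.53 and 3.27 after it (0.16 ± 0.51, adjusted p = 0.874). *Cldn23* had 41 and 23 reads at E18.5 and 66 and 161 at P1.5 (2.09 ± 0.47, 4.25-fold, adjusted p = 0.04997). *Cldn6* was at 3.34 and 2.25 against -0.01 and 0.38 and fell by 2.61 on the log2 scale (SE 0.56, 6.10-fold, adjusted p = 0.0471). After removal of the length and GC trend *Cldn4* passed (2.82, adjusted p = 0.0332), and *Cldn23* (1.92, adjusted p = 0.0700) and *Cldn6* (-2.78, adjusted p = 0.0509) did not. All 3 calls were lost when *Wfdc2*GFP/GFP replicate 1 of E18.5 or either *Wfdc2*GFP/GFP library of P1.5 was left out. Nearly all calls over all genes tested were lost in the same fits. Without the first of these the differences were 2.61, 2.33 and -2.06, with adjusted p from 0.19 to 0.251. Without *Wfdc2*GFP/GFP replicate 2 of E18.5, 6 junction genes passed where 15.7% of all genes did. *Cldn5* was at 5.54 and 7.70 against 9.63 and 9.16 (2.77 ± 0.67, adjusted p = 0.0542), and 1.69 without that library. *Cldn8*, a sealing claudin, stood at -0.50 and -0.86 against -4.19 and -2.30 with 3 and 14 reads at P1.5 (-2.56 ± 0.82, adjusted p = 0.0792), and *Cldn1* at 0.58 and -0.44 against -2.21 and -1.63 (-1.99 ± 0.59, adjusted p = 0.0716). *Ezr* was at 2.11 and 2.12 against 2.82 and 3.20 (0.90 ± 0.28, adjusted p = 0.0774). *Cdh1* stood at 2.65 and 1.99 against 1.35 and 2.08 (-0.61 ± 0.41), which was -0.28 without *Wfdc2*GFP/GFP replicate 1 of E18.5 and turned its sign after centring on library medians (0.07). Leukocyte markers summed to 3.64 to 9.21 RPKM at E18.5 and 14.5 to 19.4 at P1.5 in *Wfdc2*GFP/GFP, alveolar type I markers to 274 to 772 and 1499 to 2207, and alveolar type II markers to 2197 to 6220 and 14486 to 20288. By gene, 3 of the 6 alveolar type I markers were higher at P1.5 and 3 lower, around a median log2 difference of 0.14. Of the 6 alveolar type II markers, 5 were higher and 1 lower (median 0.29), and all 4 leukocyte markers tested were higher. The part of these cell types in the rise of *Cldn4* was not tested.

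Over both genotypes, with 4 libraries per stage, 4 junction genes rose (2.58% of all genes) and 2 fell (2.56%). The stages did not overlap for 5 that were higher (7.28%) and 2 that were lower (13.7%). The 5 included *Cldn20*, which had 3 reads or fewer in every library, with 0.9 read entered where it had none. *Cldn23* had 23 to 41 reads in the E18.5 libraries and 66 to 161 in those of P1.5 and rose by 2.18 ± 0.33 (4.54-fold, adjusted p = 0.0240). *Cldn13* had 2 to 17 reads and 16 to 42 and rose by 2.59 ± 0.53 (adjusted p = 0.0419). *Cldn15* rose by 1.34 ± 0.26 (2.53-fold, adjusted p = 0.0385), with *Wfdc2*GFP/GFP replicate 2 of P1.5 at 0.11 within the range of E18.5, and *Cldn4* by 1.68 ± 0.36 (adjusted p = 0.0435), the latter with *Wfdc2*+/+ replicate 2 of P1.5 at 3.27 within the range of E18.5. *Cldn6*, at 1.20 to 3.34 before birth and -0.71 to 0.79 after it, fell by 1.95 on the log2 scale (SE 0.39, 3.86-fold, adjusted p = 0.0409). *Tjp1*, the gene of ZO-1, went from 1.57 to 2.72 at E18.5 down to 0.31 to 1.65 and fell by 1.56 (SE 0.33, 2.94-fold, adjusted p = 0.0440). After removal of the length and GC trend 3 of the 6 passed: *Cldn23* (2.04, adjusted p = 0.0423), *Cldn15* (1.19, adjusted p = 0.0448) and *Tjp1* (-0.63, adjusted p = 0.0361). *Cldn13*, *Cldn4* and *Cldn6* were then at 2.34, 1.31 and -2.10 with adjusted p of 0.0725, 0.0581 and 0.0529. With limma, 0 of the 35 passed when *Wfdc2*GFP/GFP replicate 1 or either *Wfdc2*+/+ library of E18.5, or either *Wfdc2*GFP/GFP library of P1.5, was left out, where 0.179% to 0.454% of all genes passed. Without *Wfdc2*+/+ replicate 2 of P1.5, 21 passed where 45.6% of all genes did, without *Wfdc2*GFP/GFP replicate 2 of E18.5 it was 9 where 20.2% did, and without *Wfdc2*+/+ replicate 1 of P1.5 it was 4 where 3.92% did.

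**Figure D4:**
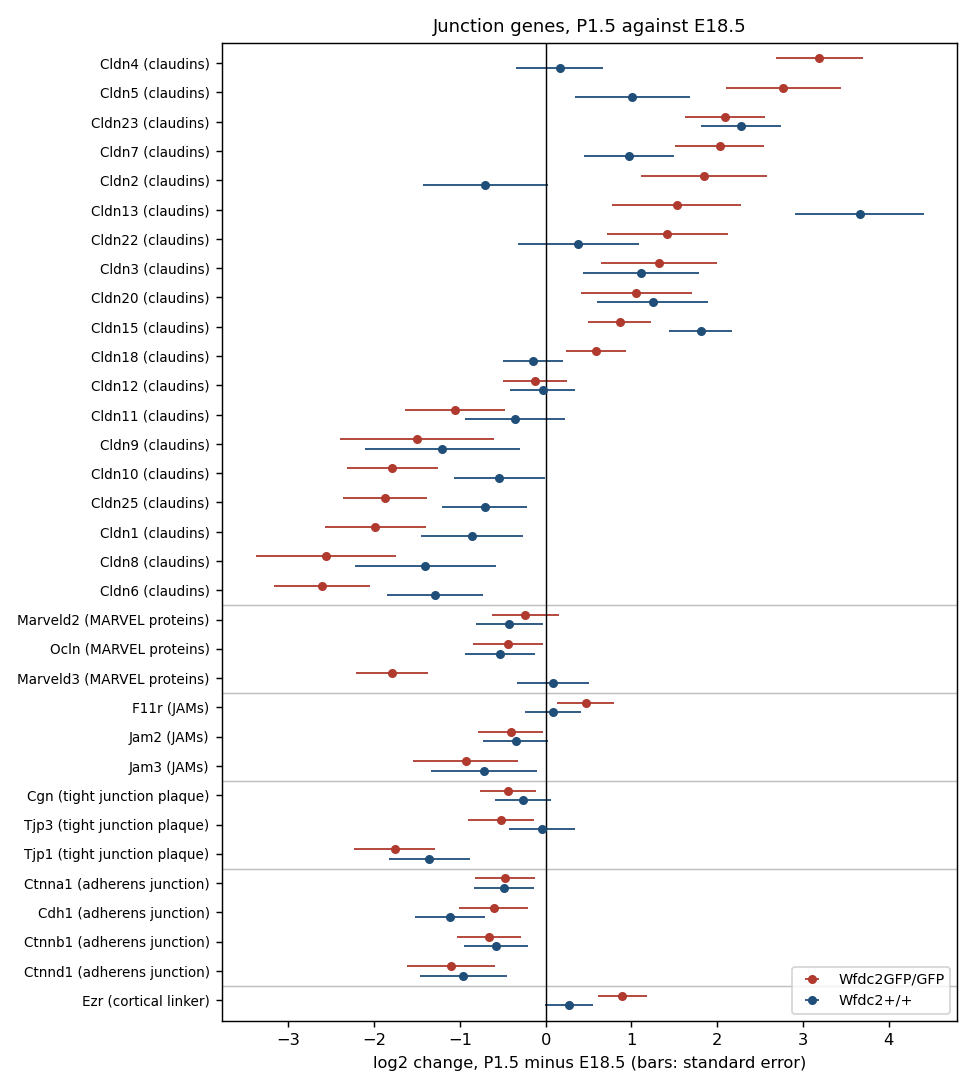
Difference between P1.5 and E18.5 in log2 RPKM for 33 tested junction genes with reads, in *Wfdc2*GFP/GFP and in *Wfdc2*+/+, with bars of 1 standard error and genes grouped by role. *Cldn4* lies at 3.19 in *Wfdc2*GFP/GFP and 0.16 in *Wfdc2*+/+, while *Cldn23* lies at 2.09 and 2.28.

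*Ezr* and *Cdh1* had stage differences of opposite sign. *Ezr* was at 2.11 to 2.52 in the 4 E18.5 libraries and 2.59 to 3.20 in the 4 of P1.5, without overlap (0.58 higher at P1.5, exact permutation p = 0.0286, two-sided, the smallest that 4 against 4 allows). Any gene whose stages do not overlap takes this p. Over all genes tested, 7.28% were higher and 13.7% lower at P1.5 without overlap. *Cdh1* was at 1.99 to 2.65 and 0.91 to 2.08, overlapping (-0.86, exact permutation p = 0.0571). In the main fit the limma adjusted p of these was 0.0804 and 0.0777, and neither passed. *Ezr* passed after centring on library medians (1.05, adjusted p = 0.0445), with voom (0.93, adjusted p = 0.0432) and after GC centring (0.74, adjusted p = 0.0498). *Cdh1* passed with replicate number as a block within stage (-0.86, adjusted p = 0.0254), and over 22 alternatives ran from -1.05 to -0.25. Without *Wfdc2*+/+ replicate 2 of P1.5 the differences were 0.63 for *Ezr* and -1.04 for *Cdh1*. *Ezr* overlaps *Sytl3* on the opposite strand. The catenin genes *Ctnna1*, *Ctnnb1* and *Ctnnd1* had P1.5 minus E18.5 differences of -0.48 ± 0.24, -0.62 ± 0.26 and -1.03 ± 0.36, and 0 of the 4 genes of the adherens junction passed. After removal of the length and GC trend these were 0.05, -0.09 and -0.21. *Cgn* lay between 0.41 and 0.62 in the P1.5 libraries and between 0.66 and 1.26 at E18.5, without overlap (-0.35 ± 0.23). The difference was -0.20 without *Wfdc2*GFP/GFP replicate 1 of E18.5, and its sign turned after centring on library medians (0.12). *Ocln*, *Marveld2* and *Marveld3* differed by -0.49, -0.33 and -0.85, and *F11r*, *Jam2* and *Jam3* by 0.27, -0.38 and -0.83.

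**Figure D5:**
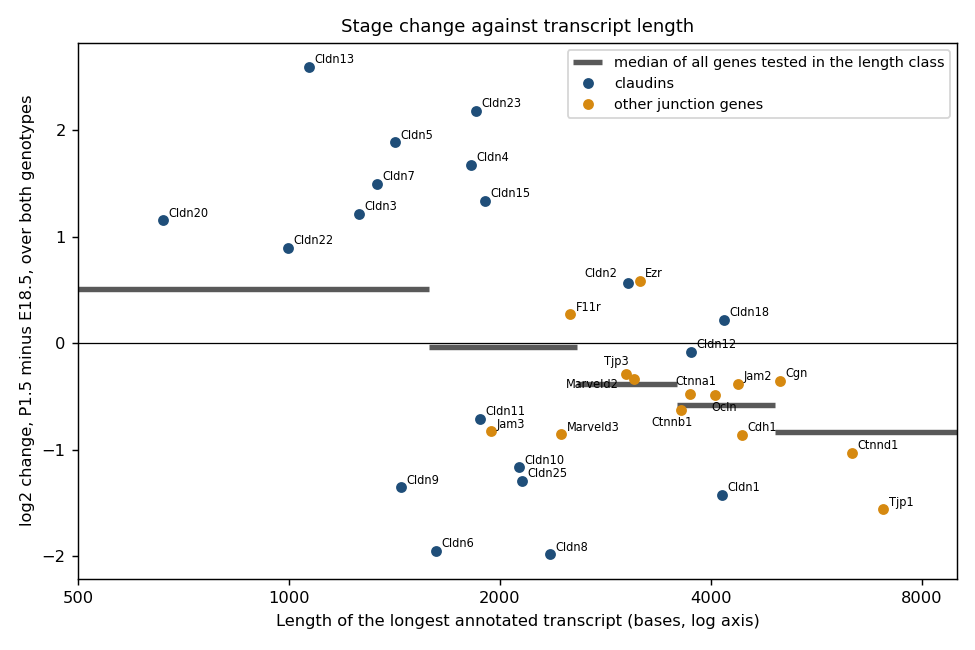
Difference between P1.5 and E18.5 over both genotypes, in log2 RPKM, against the length of the longest annotated transcript on a log axis, for 33 tested junction genes with reads (points) and as the median of all genes tested in each of 5 length classes (bars). The bars run from 0.51 in the shortest class to -0.83 in the longest. *Cldn23*, *Cldn15* and *Cldn4* lie above their bar and *Cldn6*, *Cldn8* and *Cldn1* below theirs.

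Of the 42 other junction genes listed (polarity complexes, nectins, desmosomal and further catenin, cadherin and ERM genes), 37 were tested and 0 passed in any of these comparisons with limma. Between genotypes at P1.5, 14 had positive and 23 negative differences around a median of -0.23. Over all genes tested, 6056 were positive and 9571 negative around -0.20. *Pvrl4*, encoding nectin-4, alone had an unadjusted p under 0.05 (1.09 ± 0.43, limma adjusted p = 0.422). Of all genes, 3.61% were higher and 7.33% lower at that level. Between stages over both genotypes, the numbers were 10 and 27 around a median of -0.48, against 5823 and 9804 around -0.32 over all genes. After centring each library on its median, the medians were -0.01 and 0.15. The polarity gene *Crb3* was 1.09 ± 0.31 higher at P1.5 (adjusted p = 0.062). The desmosomal plaque genes *Ppl* and *Dsp*, encoding periplakin and desmoplakin, had -1.14 ± 0.28 and -1.13 ± 0.31 (adjusted p = 0.0526 and 0.0588).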

How the data were processed

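RNA of whole mouse lung was sequenced in 8 libraries, 2 for each of 4 groups of stage and genotype. The authors deposited 1 table of log2 RPKM per gene, made per the labels' processing notes with CASAVA 1.8, Trim Galore 0.4.0, TopHat2 2.1.1, the NGS QC Toolkit and SeqMonk on mm10. Tests on the values showed that the length used is the whole gene span, introns included, and that 0.9 read was entered for 0 reads. Dividing by the value of 1 read gave whole reads for at least 99.86% of values in every library, within a tolerance of 0.02. The library kit is directional, but the use of strand in counting and the sequencer of each library are not given in the sources used here. Limits of detection in reads cover counting error only. Exon and transcript lengths came from GENCODE M21.

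Genes whose mean over the libraries reached 0.05 RPKM were tested with limma 3.58.1 (R 4.3.3) on the deposited log2 values, in 1 fit of all 8 libraries with 4 residual degrees of freedom, and p-values were adjusted by Benjamini-Hochberg over all 15627 genes. The 6 contrasts were genotype at each stage, their difference, stage in each genotype and stage over both. The spread is that between animals labelled as duplicates. Alternatives changed the scaling, pseudocount, filter, prior, libraries, replicate block and tool (voom with TMM scaling on the recovered reads). The fits were tested on simulated data. Figures were drawn with matplotlib 3.10.9, and tables made with scipy 1.17.1, pandas 2.3.3 and numpy 2.4.6 under Python 3.11.15.

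The junction genes and lists were chosen with earlier results of these data known. All junction genes may be named by level and role. Full statistics were given for *Cdh1* and *Ezr* and, in each contrast, for up to 5 genes passing in each direction, filled to 3 with the largest differences whose groups did not overlap. The other junction genes named with a value were chosen after their values were seen. Removal of the length and GC trend, of length alone and of GC alone were chosen after seeing the data. The values of 1 junction gene are not reported here, but it is included in the counts and medians.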

Additional observations from a re-analysis of the deposited data

Results flagged for a closer look

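*Ezr* and *Marveld3* had genotype differences of opposite sign before and after birth, without overlap of the groups at either stage. Over all genes tested, groups without overlap were common: 12.6% higher and 26.9% lower at P1.5, and 26.5% higher and 9.46% lower at E18.5. The share of all genes with opposite directions at both stages is not given here, so the pattern is not shown to be particular to these genes. The *Ezr* difference between *Wfdc2*GFP/GFP and *Wfdc2*+/+ was 0.33 at P1.5 and -0.30 at E18.5, so the change between stages was 0.62 ± 0.40 on the log2 scale (limma adjusted p = 0.658). The *Marveld3* difference was -1.35 at P1.5 and 0.53 at E18.5, a change of -1.88 ± 0.60 (adjusted p = 0.341). Without *Wfdc2*GFP/GFP replicate 1 of E18.5, a library that stood apart, the *Marveld3* difference at E18.5 was 0.25 and the change -1.60. Neither change passed the threshold.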

How the results depend on the processing

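Over the alternatives, 864 single-gene values kept their direction and side of the threshold, 27 passed it newly, 79 no longer passed and 8 changed sign. The number of junction genes passing was 0 between genotypes at P1.5, at E18.5 and for their difference under every alternative run. For stage in *Wfdc2*GFP/GFP it was 3, and became 12 at an adjusted p under 0.1, 1 with a pseudocount of 1 RPKM, 0 with no filter, 8 with a mean of at least 0.5 RPKM, 12 in a fit of its 4 libraries alone, 1 with a prior without a trend, 6 with voom, 5 after length and GC centring, 6 after transcript length centring and 9 after GC centring. For stage over both genotypes it was 6, and became 16 at an adjusted p under 0.1, 3 with a pseudocount of 1 RPKM, 1 with no filter, 10 at 0.5 RPKM, 3 without the trend, 10 with voom, 3 after length and GC centring and 10 after GC centring. The share of all genes passing under each of these alternatives is not given here, so these counts cannot be read as particular to junction genes. The cause was not tested.

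The median over the junction genes at E18.5 was -0.28 after median centring, -0.23 with voom and -0.20 after GC centring, and that of the difference was 0.27 after median centring. For stage in *Wfdc2*+/+ it was -0.08 after median centring, -0.16 after quantile normalization, -0.24 and -0.12 with pseudocounts of 0.1 and 1, -0.17 with no filter, -0.16 with voom, -0.18 after length and GC centring, -0.01 after transcript length centring and -0.22 after GC centring. In *Wfdc2*GFP/GFP it was 0.27 after median centring, 0.16 after quantile normalization, 0.09 with voom, 0.37 after length and GC centring, 0.37 after transcript length centring and 0.26 after GC centring. Over both it was 0.12, -0.06, -0.02, 0.09, 0.03 and 0.02 in that order, -0.14 with a pseudocount of 1 and -0.18 with no filter. In the main fit the 3 stage medians, in the same order of comparisons, were -0.35, -0.41 and -0.35. Those over all genes tested were -0.15, -0.46 and -0.32, and 0.12, 0.21 and 0.15 after median centring. At E18.5 and for the difference, the all-gene medians after median centring were -0.12 and 0.08. The sign turned for *Cdh1* with stage in *Wfdc2*GFP/GFP (0.07 after median, 0.16 after length and GC and 0.22 after transcript length centring) and for *Cgn* with stage over both (0.12, 0.21 and 0.37).

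Leaving out each library in turn gave 0 to 7 junction genes passing for stage in *Wfdc2*+/+, 0 to 6 in *Wfdc2*GFP/GFP and 0 to 21 over both. The medians ran from -0.25 to 0.23 at P1.5, -0.15 to 0.02 at E18.5, -0.30 to 0.25 for the difference, -0.34 to -0.16 and -0.58 to -0.08 for stage in *Wfdc2*+/+ and *Wfdc2*GFP/GFP and -0.50 to -0.26 over both. *Cdh1* at E18.5 ran from -0.40 to 0.26. Where 1 library was left in a group, it was assumed to vary like the other groups.

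Deviations from the group means were correlated between libraries of the same replicate number. The correlations were 0.23 and 0.21 between genotypes within a stage, and -0.29 to 0.08 across stages. They do not settle whether the numbers pair the samples. Replicate number went with *Xist* in every group, so the spread within each group includes any difference that goes with *Xist*. With the replicate number as a block, 0 junction genes passed between genotypes, 0 for stage in either genotype and 2 over both. With a block within stage, 1 passed for stage in *Wfdc2*+/+, 12 in *Wfdc2*GFP/GFP and 16 over both. The share of all genes passing with either block is not given here.

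With 2 libraries a group, the 95% interval of *Cldn4* at P1.5 spans 1.89 to 4.23 and that of *Cdh1* -0.50 to 1.38. *Cldn14*, *Cldn16*, *Cldn17*, *Cldn20* and *Cldn24* were at or under the limit of 3 reads in every library, so no change in them could be measured.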
